A study of Mus musculus with 3 samples.

Results

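Collagens are the main structural proteins of the aortic wall, and 14 collagen genes were listed among the 1238 different genes for which RNA-seq values were used here. They were chosen by symbol, as every gene named Col, a number, the letter a, and a number. Values came from 3 RNA-seq libraries of suprarenal aorta. The cohorts were AngII AAA, AngII No AAA, and Saline, with 1 library each. All mice were male apoE null C57BL/6 animals, 12 weeks old at surgery, so that the control cohort shared the apoE deletion, which makes mice prone to hyperlipidemia. Implanted pumps delivered angiotensin II (AngII) to the cohorts whose names begin with AngII and saline to the control cohort. Tissue with a dissecting abdominal aortic aneurysm (AAA) was harvested within 24 hours of diagnosis, whereas the AngII No AAA and Saline aortas were harvested 10 days after implantation. The cohorts of AngII-infused mice were thus separated by outcome, and their harvest times differ.

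Each library held RNA from several animals and is called a pool from here on. With 1 pool per cohort, no comparison of these pools has a replicate check. No test across animals could be made from them, and no p-value is given. By the labels, the pools were sequenced to between 35000000 and 43000000 reads. Levels are in FPKM, fragment counts divided by transcript length and by the number of mapped fragments, a scale on which genes of different length can be compared. FPKM does not give the number of fragments behind a value, so the counting error of each value is unknown. The authors listed only genes that differed at an unadjusted p-value under 0.05 in a comparison, and a listed gene therefore had to differ. Counts of listed genes and their directions are a description of the lists. A collagen that is not listed has no value here, which says nothing about its level.

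As background, collagens are built from chains that wind into triple helices, and they are grouped by the structures these form. Fibrillar collagens (types I, III, and V here) make the fibrils that bear load in the adventitia and media. FACIT collagens (fibril-associated collagens with interrupted triple helices, types XII, XIV, and XVI here) sit on the fibril surface. The short-chain collagen type VIII forms networks in the vessel wall and is known to be made by smooth muscle and endothelial cells. Type VI collagen forms beaded filaments around cells, and type IV collagen forms the sheet of the basement membrane that surrounds each smooth muscle cell and underlies the endothelium.

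Direction among the listed collagens went with type, but also with the comparison that listed them. Only AngII AAA against Saline listed collagens in both directions, with 4 higher and *Col4a6* lower, so type and comparison cannot be fully told apart. The fibrillar, FACIT, and short-chain collagens that were listed were higher in the AngII-infused pools than in the Saline pool. The type IV collagens that were listed were lower in the AngII AAA pool than in the pool or pools they were compared with. Type VI chains were listed in different comparisons. *Col6a1* and *Col6a3* were higher in the AngII No AAA pool than in the Saline pool. *Col6a6* was lower in the AngII AAA pool than in the AngII No AAA pool. From a list of 44 mouse collagen genes, 4 of 11 fibrillar, 3 of 9 FACIT, 1 of 3 short-chain, 3 of 6 type VI, and 3 of 6 type IV genes were listed in at least 1 comparison. None of the 9 collagens outside these types was listed. The chains *Col1a1*, *Col4a4*, and *Col6a2*, partners of listed chains, and *Col4a1* and *Col4a2*, which partner each other, were not among the listed genes, and no value is given for them.

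**Figure D1:**
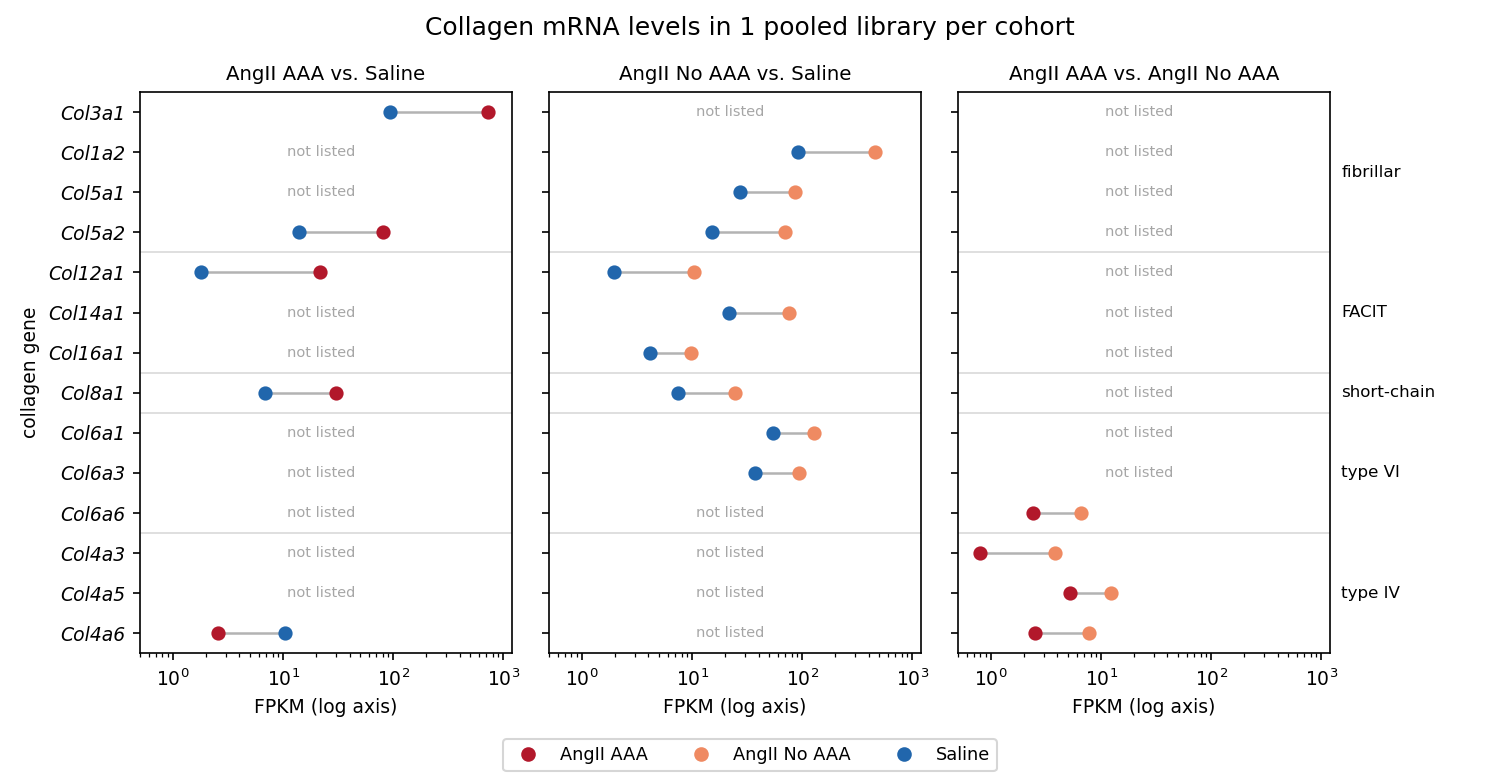
FPKM (log axis) of the 14 collagen genes, grouped by type, in the 2 pools of each comparison, with 1 pool per cohort and no error bar. All 9 collagens of AngII No AAA against Saline are higher in the AngII No AAA pool, and all 4 of AngII AAA against AngII No AAA are lower in the AngII AAA pool.

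The fibrillar collagens *Col3a1* and *Col1a2* had the highest levels of the listed collagens. *Col3a1*, which encodes the single chain of type III collagen, the fibrillar collagen of distensible tissues, was at 716.6 FPKM in the AngII AAA pool and at 93.2 FPKM in the Saline pool. This is a 7.69-fold difference (log2 ratio 2.94), and the AngII AAA level was the 10th highest of the 715 genes listed in that comparison. *Col1a2*, the alpha 2 chain of type I collagen, was at 456.2 FPKM for AngII No AAA and at 91.3 FPKM in the Saline pool. The AngII No AAA level of *Col1a2* was 4.99-fold higher (log2 ratio 2.32) and was the 9th highest of the 564 genes listed there. *Col3a1* was not listed in AngII No AAA against Saline, and *Col1a2* was not listed in AngII AAA against Saline, so the levels of these chains cannot be set beside each other in one AngII pool. In the Saline pool the levels were close, but they come from separate lists, which were normalized in separate runs.

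Type V collagen is a minor fibrillar collagen that is built into type I fibrils and limits their diameter. Its alpha 2 chain, *Col5a2*, appeared in both lists against Saline. It was at 80.7 FPKM in the AngII AAA pool against 13.8 FPKM in the Saline pool, a 5.85-fold difference, and at 70.0 FPKM for AngII No AAA against 15.1 FPKM in the Saline pool, a 4.64-fold difference. The alpha 1 chain, *Col5a1*, was listed for AngII No AAA against Saline, at 86.3 and 27.3 FPKM, respectively, which is a 3.16-fold difference. The *Col5a1* level was 1.81 times that of *Col5a2* in the Saline pool and 1.23 times in the AngII No AAA pool. The alpha 2 chain thus differed more than the alpha 1 chain between these pools, with no replicate to set this difference against.

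The genes of *Col3a1* and *Col5a2* are neighbors. In the mm9 coordinates of the files, *Col3a1* lies at chr1:45368383-45406551 and *Col5a2* at chr1:45431176-45560127, with 24624 bases between them. Both appeared as higher for AngII AAA than for Saline, with log2 ratios of 2.94 and 2.55. *Col1a2* lies at chr6:4455697-4491543, and *Col5a1* at chr2:27741945-27895030. The promoters of *Col1a2* and *Col3a1* are shown because these genes had the highest levels. The sequences are the 250 bases before the annotated gene start, from RefSeq (build GRCm38.p6, a later build than that of the files), at chr6:4505368-4505617 for *Col1a2* and chr1:45311288-45311537 for *Col3a1*, both on the plus strand. Capitals mark a match, on either strand, to TATAAA (a core promoter element), CCAAT (a promoter element bound by nuclear factor Y), or GGGCGG (a site known for factors such as Sp1).
Col1a2: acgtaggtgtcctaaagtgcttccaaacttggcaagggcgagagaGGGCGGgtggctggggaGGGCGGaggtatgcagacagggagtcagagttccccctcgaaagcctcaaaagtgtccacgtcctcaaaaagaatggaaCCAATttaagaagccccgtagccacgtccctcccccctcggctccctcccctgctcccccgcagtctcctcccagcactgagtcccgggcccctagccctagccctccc
Col3a1: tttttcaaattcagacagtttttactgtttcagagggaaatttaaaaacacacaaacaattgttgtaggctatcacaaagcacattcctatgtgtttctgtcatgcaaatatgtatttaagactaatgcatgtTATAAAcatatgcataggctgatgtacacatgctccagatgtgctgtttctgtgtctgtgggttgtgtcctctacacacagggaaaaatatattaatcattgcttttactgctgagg

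The *Col1a2* window held GGGCGG at 2 places and CCAAT at 1 place, and 62.0% of its bases were G or C. The *Col3a1* window held TATAAA from position -117 to -112, well before the start. It had 35.2% G or C, against a median of 52.4% over 32851 promoter windows. Promoters of 10 of the 14 collagens were matched by symbol, all but those of *Col4a3*, *Col5a2*, *Col12a1*, and *Col14a1*. GGGCGG was found in 7 of these 10 and in 32.7% of all windows, CCAAT in 3 of 10 and in 33.8%, and TATAAA in 1 of 10 and in 12.4%. No collagen window held a CArG box (the site read by serum response factor in smooth muscle genes), which was found in 1.47% of all windows. A match is a run of letters and does not show that a factor binds there.

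FACIT collagens were higher in the AngII-infused pools wherever they were listed. *Col12a1*, whose protein joins fibrils to the surrounding matrix in tissues under tension, had the largest fold of the listed collagens in both comparisons with the Saline pool, with no pseudocount. It was at 21.8 FPKM in the AngII AAA pool and at 1.79 FPKM in the Saline pool, a 12.2-fold difference (log2 ratio 3.60). In the other list, the AngII No AAA pool was at 10.5 FPKM and the Saline pool at 1.96 FPKM, a 5.36-fold difference (log2 ratio 2.42). Of the collagens that were higher under AngII, these ratios moved most when 1 FPKM was added to each value, to 3.03 and 1.96. The first was still the largest, whereas the second was then below those of *Col1a2* (2.31) and *Col5a2* (2.14).

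The other FACIT collagens were listed for AngII No AAA against Saline. *Col14a1*, which is known to regulate fibril assembly, was at 75.5 FPKM for AngII No AAA and at 21.5 FPKM in the Saline pool, a 3.52-fold difference. *Col16a1*, found near cells and microfibrils, was at 9.84 and 4.13 FPKM, a 2.38-fold difference. *Col14a1* was the most abundant FACIT gene in both pools. Its level was 11.0 times that of *Col12a1* in the Saline pool and 7.21 times in the AngII No AAA pool. *Col12a1* lies at chr9:79446794-79566529, *Col14a1* at chr15:55139305-55352358, and *Col16a1* at chr4:129725084-129776521 (mm9).

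The short-chain collagen *Col8a1*, at chr16:57624369-57754850 (mm9), was at 30.1 FPKM in the AngII AAA pool and at 6.84 FPKM in the Saline pool, a 4.41-fold difference. For AngII No AAA against Saline it was at 24.7 and 7.47 FPKM, a 3.30-fold difference. It was thus higher in each AngII-infused pool than in the Saline pool.

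Type VI collagen is assembled from an alpha 1, an alpha 2, and a longer chain, of which alpha 3 is the common form and alpha 6 is related to it. *Col6a1* was at 127.2 FPKM for AngII No AAA and at 54.3 FPKM in the Saline pool (2.34-fold), and *Col6a3* was at 94.2 and 37.3 FPKM (2.53-fold). The ratio of *Col6a1* to *Col6a3* was 1.45 in the Saline pool and 1.35 in the AngII No AAA pool. Along with that of *Col16a1*, these were the smallest folds of the collagens listed there. *Col6a6* was listed in another comparison and in the opposite direction, at 2.42 FPKM in the AngII AAA pool and 6.62 FPKM in the AngII No AAA pool, a log2 ratio of -1.45. In the AngII No AAA pool *Col6a6* was far below the other type VI chains, though the lists were normalized separately. In mm9, *Col6a1* is at chr10:76171537-76188789, *Col6a3* at chr1:92663435-92740548, and *Col6a6* at chr9:105591747-105730415.

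Type IV collagen has 6 chains, which assemble as alpha 1 with alpha 2, alpha 3 with alpha 4 and alpha 5, or alpha 5 with alpha 6. The alpha 5 and alpha 6 network is known in the basement membranes of smooth muscle, whereas the alpha 3 network is best known in the kidney glomerulus. *Col4a5* was at 5.17 FPKM in the AngII AAA pool and at 12.3 FPKM for AngII No AAA, a log2 ratio of -1.25. *Col4a6* was at 2.50 and 7.79 FPKM in the same pools, a log2 ratio of -1.64. *Col4a3* had the lowest level of the collagens, 0.786 FPKM in the AngII AAA pool against 3.80 FPKM in the AngII No AAA pool, and its log2 ratio of -2.27 was the most negative. With 1 FPKM added to each value, the log2 ratio of *Col4a3* was -1.43. The authors also measured *Col4a3* by real-time PCR in several animals per cohort. They reported significantly lower expression for AngII AAA than for either other cohort. All of these chains were lower in the AngII AAA pool.

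*Col4a6* was also listed for AngII AAA against Saline, at 2.58 FPKM in the AngII AAA pool and 10.3 FPKM in the Saline pool, a 3.99-fold difference. It was the single collagen listed as lower in any pool under AngII than in the Saline pool. The *Col4a5* level was 1.58 times that of *Col4a6* in the AngII No AAA pool and 2.07 times in the AngII AAA pool, and 3.24 and 6.58 times that of *Col4a3*, respectively. The chain with the lowest level thus also had the largest relative difference among the type IV genes.

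*Col4a5* and *Col4a6* lie head to head on the X chromosome, a known arrangement in mammals. In mm9, *Col4a6* is at chrX:137599946-137908619 and *Col4a5* at chrX:137909962-138123778, with 1342 bases between them. RefSeq places *Col4a5* on the plus and *Col4a6* on the minus strand, so that the sequence between their starts lies upstream of both. *Col4a3* is at chr1:82583496-82718634. The 250 bases before each start are shown because these neighboring genes were listed together, at chrX:141475169-141475418 for *Col4a5* and chrX:141474077-141474326 for *Col4a6* (RefSeq, GRCm38.p6), each written in the direction of its gene, with the same motifs in capitals (CCGCCC is GGGCGG on the other strand).
Col4a5: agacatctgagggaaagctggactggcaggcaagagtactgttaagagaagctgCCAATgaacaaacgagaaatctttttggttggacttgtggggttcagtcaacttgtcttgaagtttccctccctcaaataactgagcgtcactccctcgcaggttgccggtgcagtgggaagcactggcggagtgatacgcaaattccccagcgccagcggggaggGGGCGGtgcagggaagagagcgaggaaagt
Col4a6: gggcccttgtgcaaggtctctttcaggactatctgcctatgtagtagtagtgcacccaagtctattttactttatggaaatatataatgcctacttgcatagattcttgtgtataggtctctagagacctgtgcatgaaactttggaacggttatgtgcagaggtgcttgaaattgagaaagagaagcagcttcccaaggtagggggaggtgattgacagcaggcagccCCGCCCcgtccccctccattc

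Each of these windows held GGGCGG within its last 30 bases, from position -30 to -25 before the start of *Col4a5* and, on the other strand, from -21 to -16 before the start of *Col4a6*. The *Col4a5* window also held CCAAT, and neither held TATAAA. The share of G or C was 54.0% for *Col4a5* and 47.6% for *Col4a6*.

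The comparison of AngII No AAA against Saline sets AngII-infused aortas, selected for having no dissection, beside control aortas. In it, 9 collagens were listed and all 9 were higher in the AngII No AAA pool. Of all 564 listed genes, 63.5% were higher there and 36.5% were lower. The log2 ratios of the 9 collagens ranged from 1.23 for *Col6a1* to 2.42 for *Col12a1*, with a median of 1.72, beside 1.44 over all listed genes that were higher. At least 4-fold higher were 3 of the 9 (*Col12a1*, *Col1a2*, and *Col5a2*), beside 11.9% of all listed genes. Summed over these 9 genes alone, levels were 954.5 FPKM in the AngII No AAA pool and 260.3 FPKM in the Saline pool. All 9 were listed as higher, so the direction of these sums was set by the listing, and unlisted collagens are missing from them. *Col1a2* made up 47.8% of the first sum and 35.1% of the second.

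For AngII AAA against Saline, 5 collagens were listed. *Col3a1*, *Col5a2*, *Col8a1*, and *Col12a1* were higher in the AngII AAA pool and *Col4a6* was lower, beside 84.6% of all 715 listed genes that were higher and 15.4% that were lower. Among the 605 higher genes, *Col12a1* had the 99th largest fold, *Col3a1* the 198th, *Col5a2* the 288th, and *Col8a1* the 403rd. The higher genes of this list had a median log2 ratio of 2.46, and the higher collagens lay on both sides of it. Of the 5 listed collagens, 4 were at least 4-fold higher, beside 63.1% of all 715 listed genes, higher and lower together. *Col4a6* just missed a 4-fold difference, which 9.23% of all listed genes passed in that direction. *Col3a1* made up 84.1% of the summed FPKM of the 5 listed collagens in the AngII AAA pool and 74.0% in the Saline pool.

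For AngII AAA against AngII No AAA, which separates aortas with a dissection from AngII-infused aortas without one, *Col4a3*, *Col4a5*, *Col4a6*, and *Col6a6* were listed and all 4 were lower in the AngII AAA pool. Of all 600 listed genes, 21.0% were lower and 79.0% were higher. Of the 4 collagens, only *Col4a3* was at least 4-fold lower, beside 6.33% of all listed genes. Their levels in the AngII No AAA pool, from 3.80 to 12.3 FPKM, lay well below those of the fibrillar collagens in the list of AngII No AAA against Saline, which was normalized separately. No fibrillar, FACIT, or short-chain collagen was listed in this comparison.

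**Figure D2:**
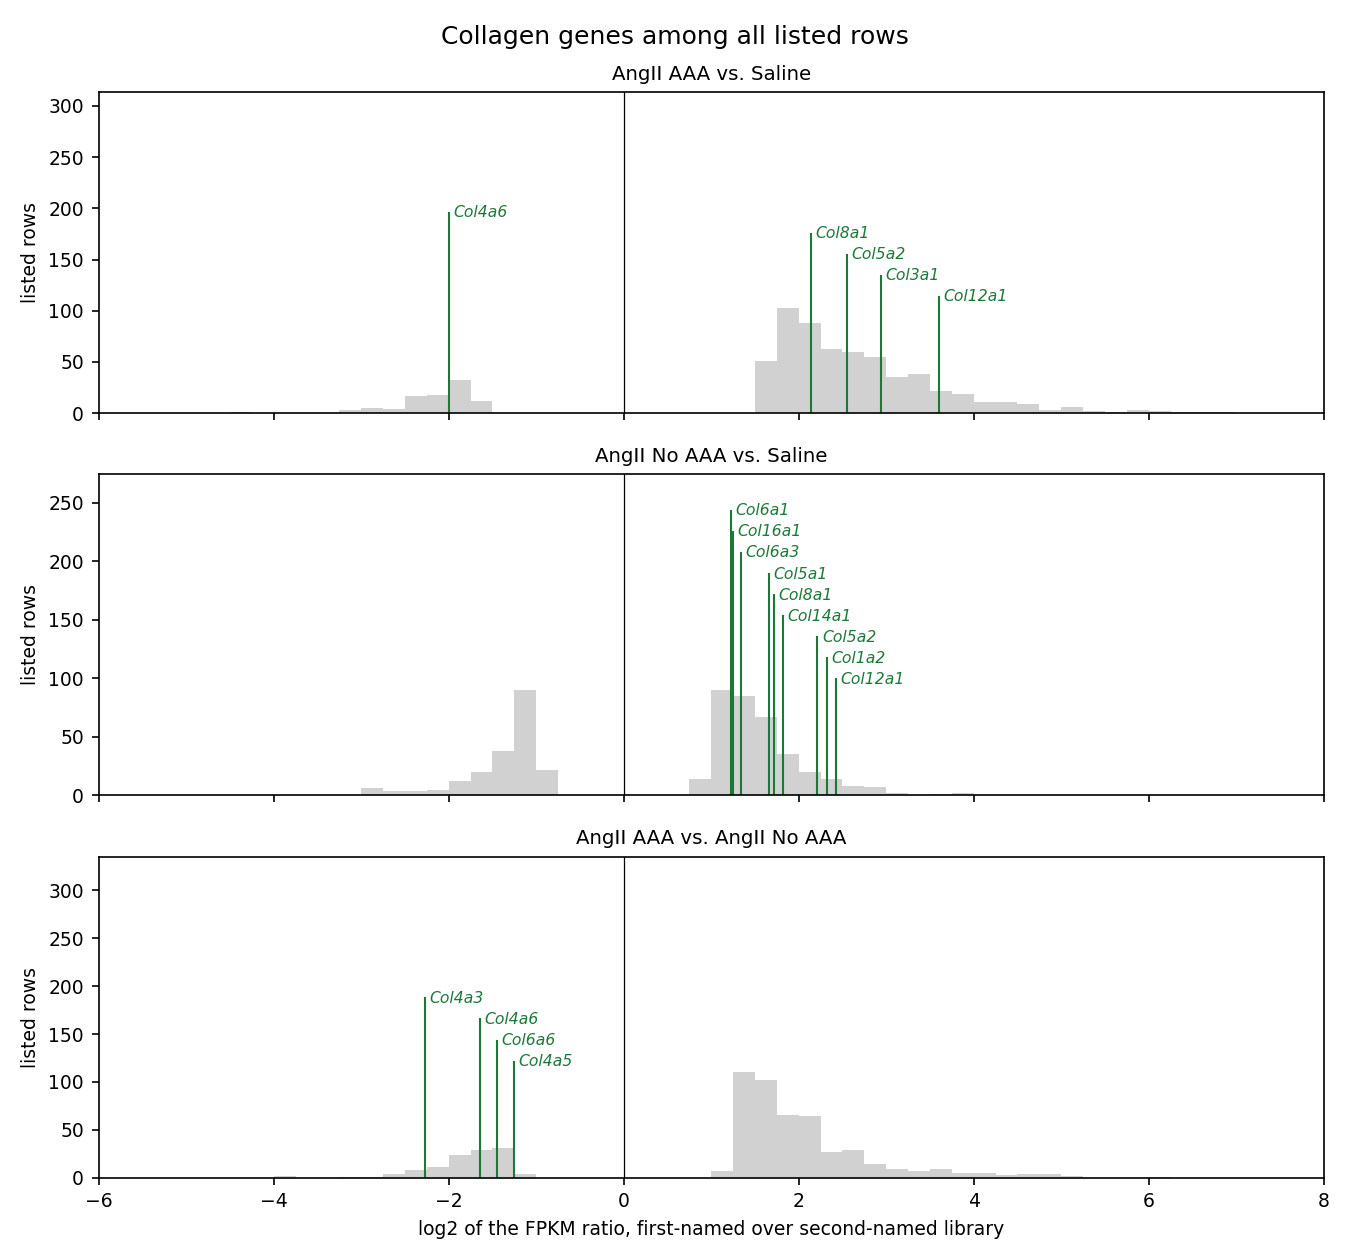
Number of listed rows (gray bars, in bins of the log2 ratio of FPKM, finite ratios) in each comparison, with each collagen gene marked by a green line whose height carries no value. The collagens lie on the right in both comparisons with the Saline pool except *Col4a6*, and on the left in AngII AAA against AngII No AAA.

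The lists differ in the size of difference they hold, which bears on which collagens could appear in them. The smallest finite fold was 2.93 in AngII AAA against Saline, 1.91 in AngII No AAA against Saline, and 2.30 in AngII AAA against AngII No AAA. Of 6 collagens listed as higher in AngII No AAA against Saline and not in AngII AAA against Saline, *Col6a1*, *Col6a3*, and *Col16a1* had folds under 2.93. *Col1a2*, *Col5a1*, and *Col14a1* had folds above it. Their absence from the AngII AAA against Saline list does not show that they were lower in the AngII AAA pool, since values there were not listed.

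The comparisons share pools, so their values are not independent of each other. Values in all 3 pools could be set side by side for 4 collagens listed in 2 comparisons. Genes shared by lists gave the factor between their scales, a median of 1.09 for the Saline pool (227 genes) and 0.968 for the AngII AAA pool (385 genes), which was divided out. On the scale of AngII AAA against Saline, *Col12a1* was at 1.79 FPKM in the Saline pool, 9.59 FPKM in the AngII No AAA pool, and 21.8 FPKM in the AngII AAA pool. *Col5a2* was at 13.8, 64.0, and 80.7 FPKM in the same order, and *Col8a1* at 6.84, 22.6, and 30.1 FPKM. These collagens were lowest in the Saline pool and highest in the AngII AAA pool. *Col4a6* had the opposite order, at 10.3 FPKM in the Saline pool, 8.04 FPKM in the AngII No AAA pool, and 2.58 FPKM in the AngII AAA pool.

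Between the AngII-infused pools, the differences on this scale were uneven. The log2 ratio of AngII AAA to AngII No AAA was 0.33 for *Col5a2* and 0.42 for *Col8a1*, 1.18 for *Col12a1*, and -1.64 for *Col4a6*. Of these, *Col4a6* was the gene that the list of AngII AAA against AngII No AAA held. The remaining ratios set 2 lists together through the shared Saline pool and have no replicate behind them. For *Col4a6*, the AngII No AAA and Saline pools differed by a log2 ratio of -0.36, in a comparison where this gene was not listed.

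**Figure D3:**
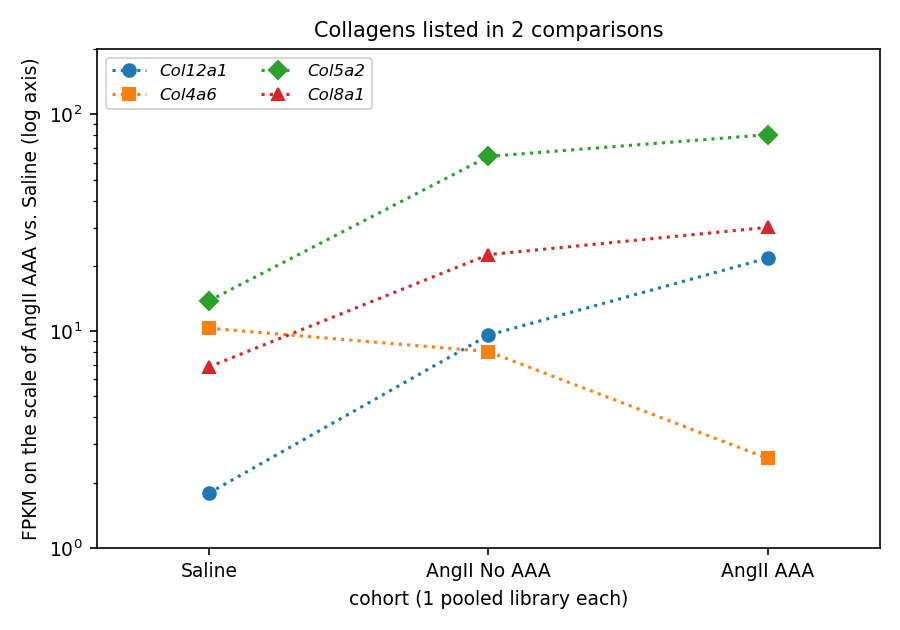
FPKM (log axis, on the scale of AngII AAA against Saline) of the 4 collagens listed in 2 comparisons, by cohort, with 1 pool each. *Col12a1*, *Col5a2*, and *Col8a1* are lowest in the Saline pool and *Col4a6* is lowest in the AngII AAA pool; dotted lines join the values of a gene.

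By the pair of log2 ratios against the Saline pool, the genes nearest to the median of *Col5a2*, *Col8a1*, and *Col12a1* among 222 genes listed in both comparisons were *Rsad2*, *Hgf*, and *Snai1*. Their log2 ratios for AngII AAA against Saline were 2.59, 2.52, and 2.67, and those for AngII No AAA against Saline were 2.18, 2.10, and 2.08. The collagen median was 2.55 and 2.21. Nearest to the 4 collagens of AngII AAA against AngII No AAA in log2 ratio and level were *Mtus2*, *Pitpnm3*, and *Snhg17*, with log2 ratios of -1.42, -1.47, and -1.77, beside a collagen median of -1.54. Likeness was the straight-line distance between these values, over 3 and 2 pools, respectively. It was 0.0561 for *Rsad2* and 0.228 for *Mtus2*.

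Collagen chains need folding enzymes, proteases that trim their ends, and lysyl oxidases that crosslink the fibrils. For AngII No AAA against Saline, 8 of 33 genes of this list were listed and all 8 were higher in the AngII No AAA pool, beside 63.5% of all listed genes. Their median log2 ratio was 1.36, below the 1.44 of all listed genes that were higher. *Lox*, the founding lysyl oxidase, was at 119.7 FPKM for AngII No AAA and at 17.9 FPKM in the Saline pool. *Loxl2*, a related oxidase active on type IV collagen, was at 46.9 and 9.77 FPKM. *Plod2*, which hydroxylates the lysines used in crosslinks, was at 34.5 and 12.0 FPKM. The log2 ratios of *Lox* and *Loxl2*, 2.74 and 2.26, lay on either side of the 2.32 of *Col1a2*.

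In AngII AAA against Saline, *Lox*, *Loxl2*, and *Plod2* were the 3 genes of the list that were listed, with log2 ratios of 3.56, 2.77, and 1.79. All 3 were higher in the AngII AAA pool, beside 84.6% of all listed genes. *Lox* was at 193.5 FPKM in the AngII AAA pool and at 16.4 FPKM in the Saline pool. None of the 33 genes was listed for AngII AAA against AngII No AAA. Like the fibrillar collagens, these genes were listed in the comparisons with the Saline pool and not between the AngII-infused cohorts. A gene that is not listed may still differ, so this absence does not show alike levels in those cohorts.

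Of 19 genes for collagen degradation and its inhibitors, 6 were listed for AngII No AAA against Saline, 6 for AngII AAA against Saline, and 3 for AngII AAA against AngII No AAA, all higher in the first-named pool. Of all listed genes, 63.5%, 84.6%, and 79.0% were higher in these comparisons. The median log2 ratios of the degradation genes were 1.55, 4.14, and 3.97, beside 1.44, 2.46, and 1.81 over all higher genes. *Mmp8*, the neutrophil collagenase that cleaves fibrillar collagens, was at 44.9 FPKM in the AngII AAA pool and at 0.712 FPKM in the Saline pool. *Timp1*, an inhibitor of metalloproteinases, was at 324.7 FPKM in the AngII AAA pool and at 6.52 FPKM in the Saline pool. *Mmp9*, a gelatinase that also cleaves type IV collagen, had log2 ratios of 4.25 against the Saline pool and 3.97 against the AngII No AAA pool. For AngII No AAA against Saline the largest log2 ratios were 1.82 for *Mmp3*, 1.71 for *Ctss*, and 1.70 for *Mmp14*.

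Of 12 genes gathered as collagen receptors, *Mrc1*, an endocytic receptor for collagen fragments on macrophages, was higher in the first-named pool in every comparison. Its log2 ratios were 2.72 for AngII AAA against Saline, 1.29 for AngII No AAA against Saline, and 1.39 for AngII AAA against AngII No AAA. *Itga2b*, a platelet integrin chain, and *Lair1*, an inhibitory collagen receptor of leukocytes, appeared wherever AngII AAA was compared. Their log2 ratios against the Saline pool were 2.31 and 2.08. The integrin of *Itga2b* is known to bind fibrinogen, so this gene is not a collagen receptor, although the list held it. With *Itga2b* counted, 3 genes of this list were listed for AngII AAA against Saline and 3 for AngII AAA against AngII No AAA. For AngII No AAA against Saline, 1 was listed. All were higher, in lists where 84.6%, 79.0%, and 63.5% of genes were higher, respectively.

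Among 18 basement membrane partners of type IV collagen, few were listed. *Lamc3*, a laminin gamma chain, was at 2.50 FPKM in the AngII AAA pool and at 8.69 FPKM in the Saline pool. *Npnt*, an integrin ligand of basement membranes, was at 23.7 FPKM in the AngII AAA pool and at 83.9 FPKM for AngII No AAA. Both were lower in the AngII AAA pool, and each was the single gene of this list in its comparison. Of all listed genes, 15.4% were lower against Saline and 21.0% were lower against AngII No AAA. None of the list was listed for AngII No AAA against Saline.

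Of 23 fibril-associated matrix proteins, 5 were listed for AngII No AAA against Saline, all higher in the AngII No AAA pool, beside 63.5% of all listed genes. *Thbs1*, a matricellular protein that binds collagen, had log2 ratios of 2.53 there and 4.33 for AngII AAA against Saline. *Cthrc1*, a secreted protein with a short collagen-like repeat, was at 37.8 FPKM in the AngII AAA pool and at 3.38 FPKM in the Saline pool. *Fmod*, a proteoglycan that binds fibrils, was at 9.98 FPKM in the AngII AAA pool against 32.7 FPKM in the Saline pool. For AngII AAA against Saline, 3 genes of this list were higher and 1 was lower, beside 84.6% and 15.4% of all listed genes. For AngII AAA against AngII No AAA, 3 were higher and 2 were lower in the AngII AAA pool, beside 79.0% and 21.0%.

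Transforming growth factor beta is a known inducer of fibrillar collagen genes. Of 19 genes for its ligands, receptors, and targets, 3 were listed for AngII No AAA against Saline and all 3 were higher in the AngII No AAA pool, beside 63.5% of all listed genes. *Ctgf*, a target and matrix regulator, was at 417.3 FPKM for AngII No AAA and at 108.7 FPKM in the Saline pool. In the AngII AAA pool, *Tgfb1* was at 78.0 FPKM against 22.7 FPKM in the Saline pool, and its log2 ratio against the AngII No AAA pool was 1.31.

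**Figure D4:**
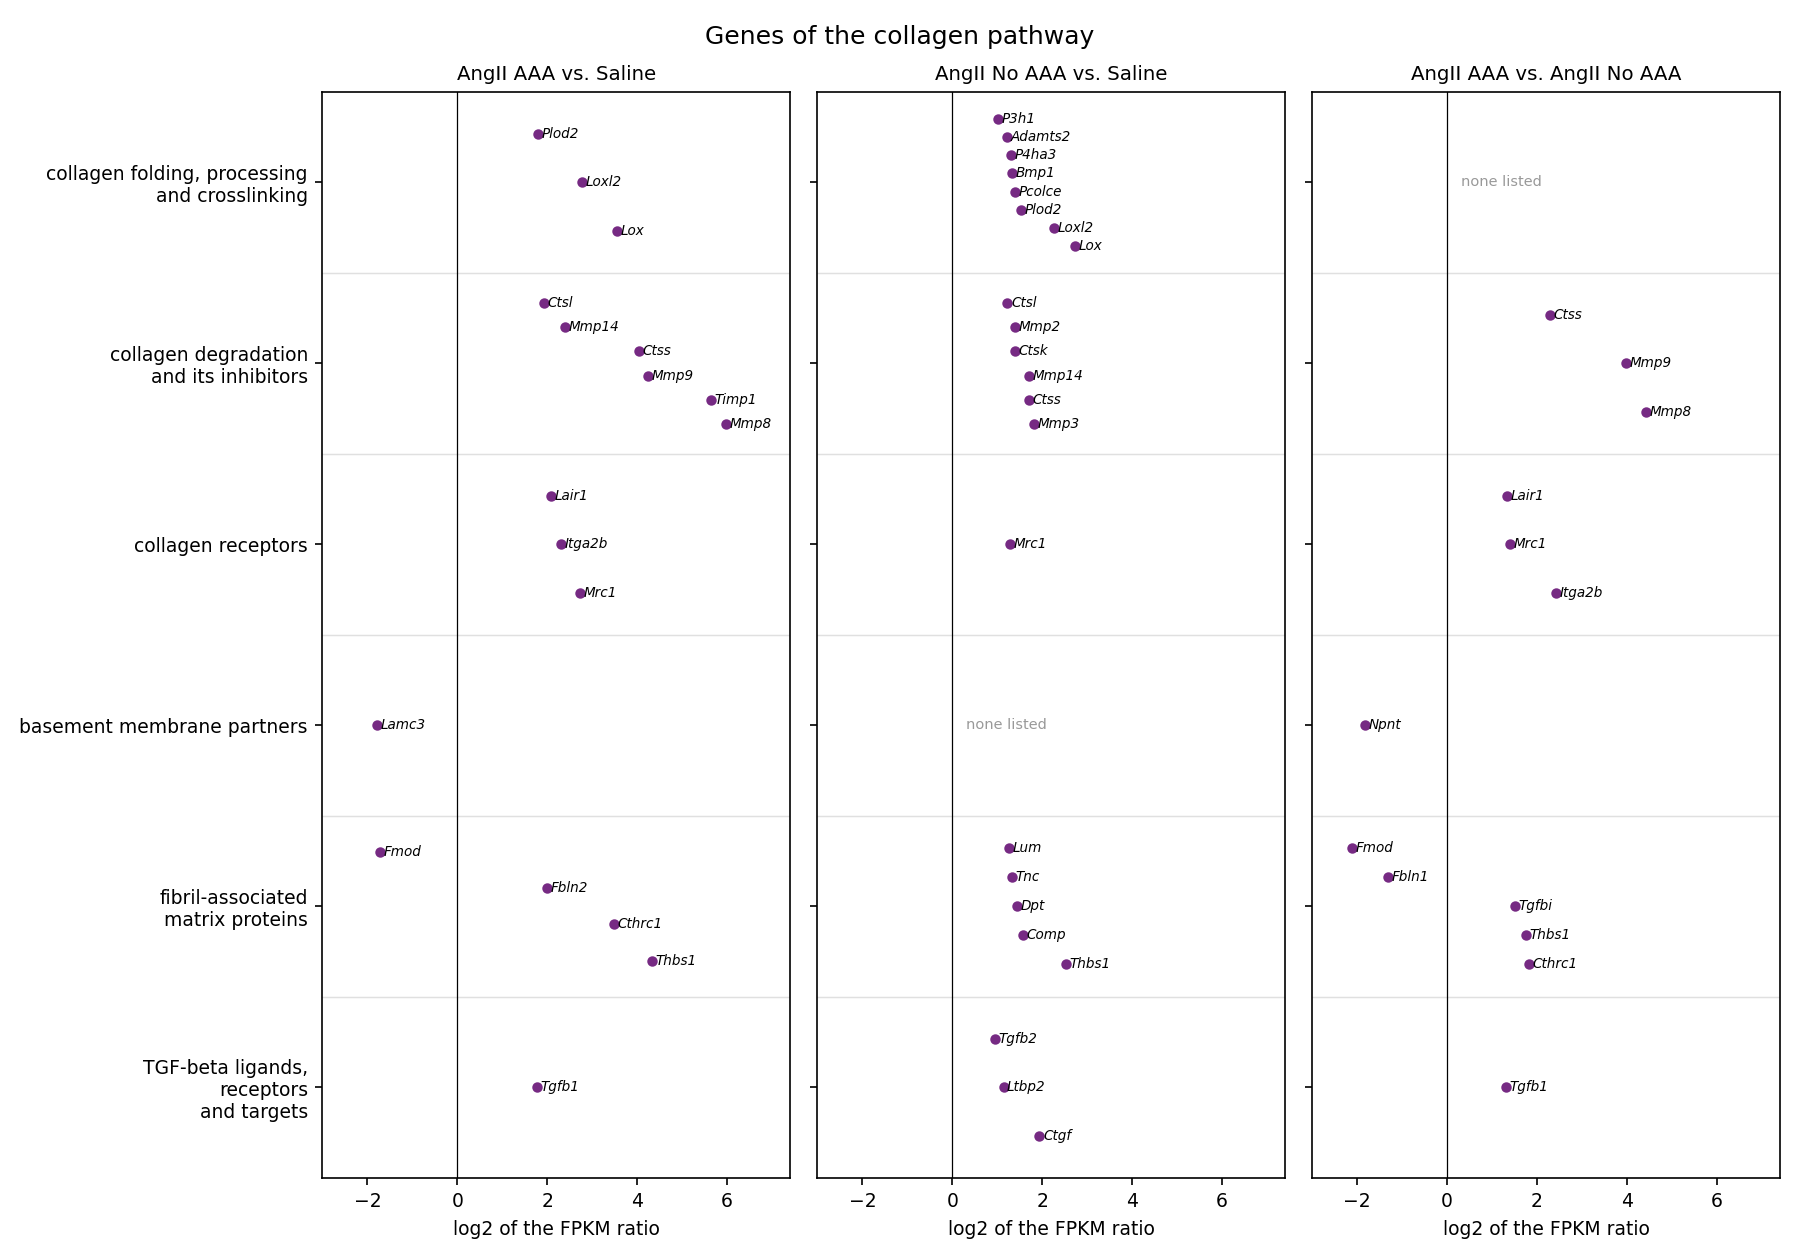
Log2 ratio of FPKM, first-named over second-named pool, of every listed gene from 6 lists of collagen pathway genes, 1 point per gene, with vertical position within a list carrying no value. All 8 folding, processing, and crosslinking genes of AngII No AAA against Saline lie to the right of 0, and no gene of that list appears in AngII AAA against AngII No AAA.

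Markers of several cell types were listed in the same comparisons as the collagens, some higher and some lower. In bulk tissue, fewer cells of a type and less RNA per cell cannot be told apart. The marker lists overlap with the lists above. For example, *Mmp8* is also a neutrophil marker here and *Mrc1* also a macrophage marker. For AngII AAA against AngII No AAA, 8 of 14 smooth muscle markers were listed. All 8 were lower for AngII AAA, beside 21.0% of all listed genes. Their median log2 ratio was -1.70, beside -1.64 for the type IV collagens. The summed level of the 8 markers was 783.6 FPKM in the AngII AAA pool and 2609 FPKM in the AngII No AAA pool. Against Saline, 3 of the 14 were listed and all 3 were lower, beside 15.4% of all listed genes. They were at sums of 70.9 and 349.6 FPKM, with a median log2 ratio of -2.32, and *Col4a6* was 3.99-fold lower. The part of smooth muscle content in the type IV collagen differences was not tested. *Acta2* and *Myh11*, defining genes of smooth muscle, were at 304.3 and 76.6 FPKM in the AngII AAA pool (list against AngII No AAA), and no listed marker was at 0.

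The other cell types differed in their own directions. Macrophage markers were higher in every first-named pool, with 9 of 11 listed and sums of 2007 and 139.4 FPKM for AngII AAA against Saline, 8 and sums of 348.2 and 134.1 FPKM for AngII No AAA against Saline, and 9 and sums of 1942 and 345.2 FPKM for AngII AAA against AngII No AAA. Adrenal cortex markers, from a gland that lies beside the suprarenal aorta, were listed for 7 of 9 genes in both comparisons of the AngII AAA pool. Their sums were 464.3 FPKM in the AngII AAA pool and 14.8 FPKM in the Saline pool. Neutrophil markers were listed for 6 of 10 genes in AngII AAA against Saline, at sums of 1150 and 51.8 FPKM. All of these listed markers were higher in the first-named pool. Of all listed genes, 84.6% and 63.5% were higher in the comparisons of AngII AAA and AngII No AAA with Saline. For AngII AAA against AngII No AAA, 79.0% were higher. The part of these cell types in the collagen differences was not tested.

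Fibroblast markers, from the cells that make most fibrillar collagen, were listed as higher in the AngII No AAA pool than in the Saline pool for 5 of 14 genes, with sums of 726.9 and 264.2 FPKM and a median log2 ratio of 1.48. This is beside the collagen median of 1.72, in a list where 63.5% of all genes were higher. Against Saline in the AngII AAA cohort, only *S100a4* of this list was listed, at 90.4 and 22.8 FPKM, and this gene is also expressed by leukocytes. For AngII AAA against AngII No AAA, *Pi16* and *Fbln1* were listed as lower in the AngII AAA pool, with log2 ratios of -1.92 and -1.32. The part of fibroblast content in the collagen differences was not tested. Skeletal muscle markers, for 8 of 10 genes, were lower in the AngII No AAA pool than in the Saline pool, at sums of 123.1 and 703.0 FPKM. Of all genes listed there, 36.5% were lower. In AngII AAA against Saline, 4 of the 10 markers were lower in the AngII AAA pool, at sums of 59.4 and 264.9 FPKM. Of all genes listed in that comparison, 15.4% were lower. Of 7 Schwann cell and nerve markers, 2 were lower for AngII No AAA than for Saline, at sums of 67.7 and 142.6 FPKM.

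Since *Col4a3* is a known glomerular gene, kidney markers were examined beside it. None of 10 kidney markers was listed for AngII AAA against AngII No AAA, the comparison that listed *Col4a3*. An unlisted marker has no value here, so this absence says nothing about kidney tissue in these pools. For AngII No AAA against Saline, *Slc34a1* and *Kap*, genes of the proximal tubule, were lower in the AngII No AAA pool, at a sum of 5.79 FPKM against 35.5 FPKM in the Saline pool. *Slc34a1* was also lower in the AngII AAA pool than in the Saline pool, at 1.42 and 7.37 FPKM. In that comparison *Col4a6* was lower as well, at 2.58 and 10.3 FPKM. The part of kidney tissue in the collagen differences was not tested. No marker of adipocytes or mesothelium was listed in any comparison. Of the endothelial list, *Emcn* was listed for AngII AAA against Saline, at 43.6 and 14.1 FPKM.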

How the data were processed

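RNA-seq libraries were analysed for 3 cohorts, with 1 pooled library per cohort. FPKM was computed by the authors and deposited in 3 lists, 1 per comparison with both libraries in each. The submitters' processing notes name FastQC, HISAT2, Cufflinks, Cuffdiff, and the build mm9. Versions and the annotation are not given in the sources used here. The deposited lists also hold the authors' log2 ratios, test scores, p-values, and adjusted p-values. These were not used, except to check that every unadjusted p-value was under 0.05.

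Log2 ratios were computed from FPKM with no pseudocount. File starts were raised by 1 base to count from 1. Values were placed across lists by the median ratio of shared genes. Collagens were chosen by symbol, and all were named. Genes named from a related list were among its 3 with the largest absolute log2 ratios in at least 1 comparison. Not all such genes were named. *Acta2* and the collagen chains without values were added after the values were seen. Members and lists were chosen with earlier results of these data known. One gene of a related list is not reported here. Calculations were tested on simulated data. Python 3.11.15, pandas 2.3.3, numpy 2.4.6, and matplotlib 3.10.9 were used. Alternatives were a fold of at least 4, at least 1 FPKM, single-gene rows, and pseudocounts of 1 and 0.1.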

Additional observations from a re-analysis of the deposited data

How the results depend on the processing

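With a fold of at least 4, the number of collagens lower for AngII AAA vs. Saline went from 1 to 0, since *Col4a6* was 3.99-fold lower. The number higher in AngII No AAA vs. Saline went from 9 to 3, and the number lower between the AngII-infused cohorts from 4 to 1. No test was run, so these counts have no p-value. A minimum of 1 FPKM in the higher library and single-gene rows left every count of collagens as it was, and the minimum did so for the counts of the related pathway lists. With a pseudocount of 1 or 0.1, all 18 log2 ratios kept their sign and moved by at most 0.85 and 0.14, respectively, both for *Col4a3*. With a pseudocount of 1, *Col12a1* no longer had the largest ratio of AngII No AAA vs. Saline (1.96, below *Col1a2* and *Col5a2*). No collagen was listed in all 3 comparisons, so the ratio through the other lists and the other source of the AngII No AAA value were not run. Each cohort had 1 library, so no replicate was left out, and protein sequences were not used here.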
